A study of Homo sapiens with 29 samples.

Results

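Described here are 10 genes whose level under the kinase inhibitor R406 differed from that in solvent mainly in one of 2 lymphoma cell lines, or in opposite directions in the 2: BHLHE40, LRRN3, TUBB2B, BCAR3, HTR3A, USP2, FCMR, RAPGEF2, SATB1 and TMEM156. They are 10 of the 12165 genes on the array, and they were chosen on the measured values themselves, for large differences between the 2 lines in the response to R406. Those differences are therefore a description of the genes and carry no test. All 18 probe sets annotated to 1 member symbol alone were used, of 22277 on the array, and a gene's level was read from its probe set of highest mean. The lines were DHL6 and DHL4, both established human diffuse large B-cell lymphoma lines, and each stands for itself only. R406 had been given to each line at 1 µM, for 2, 6, 24 or 48 h, and control cells had received DMSO, its solvent. The 10 groups held 29 arrays, 3 per group except DHL4 DMSO with 2. No time is given in the labels for DMSO, so every R406 time of a line was set against the same DMSO arrays, and drug time and culture time cannot be told apart. Whether replicate arrays came from separate cultures is not stated in the labels, and errors and p-values therefore measure a spread between arrays that may be technical.

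R406 is the active form of the drug fostamatinib and blocks SYK, the tyrosine kinase that passes the signal of the B-cell receptor into the cell. When the receptor is engaged, its partner chains CD79A and CD79B are phosphorylated, SYK docks onto them, and the signal spreads to calcium, Ras, Rap and phosphoinositide pathways that alter transcription. R406 also acts on other kinases, and the products of the 10 genes have no single pathway in common: they include a transcriptional repressor, a chromatin organiser, an ion channel subunit, an immunoglobulin receptor, a tubulin and a deubiquitinase.

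Levels are log2 expression values, so 1 unit is a factor of 2. A gene that is silent still reads about 2 to 3 on this scale, and this array floor decides what a line could show. The floor was set at 2.93, the 75th percentile of the group means of 46 probe sets for 31 genes restricted to tissues other than lymphoid ones, and a mean up to 3.43 was called near the floor. Of the 10 genes, 6 were at or near the floor in one line in all 5 of its groups: BCAR3, HTR3A and USP2 in DHL6, and BHLHE40, LRRN3 and TUBB2B in DHL4. For these 6 genes the line at or near the floor had little room to show a lower level. A difference in response between the lines thus includes a difference in starting level. In bulk RNA, fewer cells with a transcript and less transcript per cell cannot be told apart.

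The arrays of a group correlated at 0.978 to 0.996 across probe sets, and no pair of arrays was identical. The B-cell markers MS4A1, CD79A and CD79B read 9.04 to 11.7, 8.30 to 9.71 and 8.87 to 10.5 as group means, while the probe set for PAX5 lay at the floor or near it (2.59 to 3.03). The T-cell markers CD3D, CD3E, CD3G, CD2, CD5, CD7 and TRAT1 and all 5 measured monocyte markers were at or near the floor in every group, and LCK, which many lymphoma lines express, read 5.41 to 7.63. Of 6 fibroblast and endothelial markers, PECAM1 ran from 2.66 to 7.64, and the summed level of that list reached 17.4 to 17.5 under R406 in DHL6, against 17.0 in DMSO, and 18.0 to 22.7 under R406 in DHL4, against 17.6 in DMSO. The part of these markers in the results below was not tested.

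The promoters of 3 members whose level was lower under R406, BHLHE40 and TUBB2B in DHL6 and USP2 in DHL4, are printed because they carry the motif matches described with them. Each is a window of 300 bases on the gene's own strand (250 before and 50 after a listed start), from RefSeq on GRCh38.p14. Of the 10 genes, 9 had an entry in the table used. The USP2 window lies wholly inside the gene, which spans 119355215 to 119381690, and so at an internal start. Whether the USP2 transcript read by the array begins there was not tested. Capitals mark the E-box CACGTG, the site bound by clock proteins and by BHLHE40 itself, or the cAMP response element half-site TGACG (read on the other strand as its reverse complement).
BHLHE40, chr3:4979187-4979486, plus strand: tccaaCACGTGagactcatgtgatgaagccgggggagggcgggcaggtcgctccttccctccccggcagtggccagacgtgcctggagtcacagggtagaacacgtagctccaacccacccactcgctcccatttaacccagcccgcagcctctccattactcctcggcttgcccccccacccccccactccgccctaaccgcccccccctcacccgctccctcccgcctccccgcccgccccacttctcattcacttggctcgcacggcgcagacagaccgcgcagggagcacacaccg
USP2, chr11:119364159-119364458, minus strand: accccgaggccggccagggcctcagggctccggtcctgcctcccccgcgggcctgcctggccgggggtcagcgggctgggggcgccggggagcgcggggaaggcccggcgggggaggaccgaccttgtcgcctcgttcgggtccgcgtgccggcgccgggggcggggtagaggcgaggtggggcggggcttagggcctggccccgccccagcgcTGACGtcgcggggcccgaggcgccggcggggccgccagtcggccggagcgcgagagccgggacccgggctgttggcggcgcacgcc
TUBB2B, chr6:3227604-3227903, minus strand: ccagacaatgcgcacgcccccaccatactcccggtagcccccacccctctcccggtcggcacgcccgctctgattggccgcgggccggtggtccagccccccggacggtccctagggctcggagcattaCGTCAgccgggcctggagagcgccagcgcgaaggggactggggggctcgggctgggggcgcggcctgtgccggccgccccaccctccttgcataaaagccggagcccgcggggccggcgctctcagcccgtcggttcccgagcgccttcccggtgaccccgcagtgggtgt
The BHLHE40 window holds an E-box near its upstream end, and no other of the members' 24 windows held one, against 7.26% of all 35116 promoter windows searched on both strands. The half-site was found in 9 of the 24 windows, belonging to BCAR3, FCMR, RAPGEF2, SATB1, TUBB2B and USP2, against 24.6% of all windows. The forkhead site TGTTTAC, looked for because FOXO factors act downstream of this receptor, was in none of the 24 and in 3.42% of all windows. The E-box and the half-site did not occur together in the printed windows. These are matches of letters in a window, not binding sites.

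In a first group of 3 genes, the transcript was present in DHL6 and lower there under R406, while DHL4 lay at or near the floor. BHLHE40, a basic helix-loop-helix repressor of the circadian clock family, read 6.30, 6.13 and 6.08 in DHL6 DMSO. Its DHL6 levels were 3.85, 3.86 and 4.31 at 2 h, 4.49, 4.08 and 3.84 at 6 h, 3.73, 4.0 and 3.86 at 24 h, and 3.52, 4.27 and 4.66 at 48 h. Every one of the 12 R406 arrays of DHL6 thus lay below every DMSO array, and the level was already at its low plateau at 2 h. The 14 DHL4 arrays ran from 2.82 to 3.31, with no array standing apart. On the log2 scale DHL6 was lower by 2.16 ± 0.20 at 2 h and by 2.31 ± 0.20 at 24 h (R406 minus DMSO was -2.16 and -2.31, SE of the fitted model, n = 3 each). The difference in response, DHL6 minus DHL4, was -2.25 ± 0.30, -1.94 ± 0.30, -2.29 ± 0.30 and -1.91 ± 0.30 at 2, 6, 24 and 48 h. The second BHLHE40 probe set read 2.42 to 2.96 on all arrays and thus gave no reading of the gene.

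LRRN3, a leucine-rich repeat membrane protein best known from neurons, had its low at the first time. In DHL6 it read 7.88, 7.64 and 7.53 in DMSO, 4.34, 4.41 and 4.24 at 2 h, 5.08, 5.10 and 5.06 at 6 h, 4.79, 4.66 and 5.89 at 24 h, and 6.55, 7.13 and 6.35 at 48 h. All R406 arrays of DHL6 lay below its DMSO arrays, with a partial return at the last time. R406 minus DMSO in DHL6 was -3.35 ± 0.23 at 2 h and -1.0 ± 0.23 at 48 h, and the 48 h arrays stood 1.57 ± 0.23 above those of 24 h. DHL4 stayed between 2.71 and 3.42 on all its arrays, at or near the floor. Its R406 arrays at 6, 24 and 48 h nevertheless lay below its DMSO arrays (3.28 and 3.42). R406 minus DMSO in DHL4 was -0.44 ± 0.25, -0.34 ± 0.25 and -0.24 ± 0.25 at these times. The difference in response was -3.25 ± 0.34 at 2 h, -2.16 ± 0.34 at 6 h, -2.23 ± 0.34 at 24 h and -0.76 ± 0.34 at 48 h. The other LRRN3 probe set was also below DMSO in DHL6 at every time, but lowest at 6 h, with group means of 7.13 in DMSO and 4.23, 4.04, 4.53 and 5.98 at the 4 times, and 3.24 to 3.58 in DHL4.

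TUBB2B, a beta-tubulin abundant in developing neurons, had its lowest levels last. In DHL6 it read 7.0, 5.54 and 6.54 in DMSO, 5.94, 5.73 and 6.67 at 2 h, 5.61, 3.96 and 4.36 at 6 h, 4.38, 4.81 and 5.71 at 24 h, and 3.97, 3.12 and 2.94 at 48 h. The R406 arrays overlapped the widely spread DMSO arrays at 2, 6 and 24 h, and only at 48 h did all 3 lie below them. In DHL4 the arrays read 2.41 to 2.96, apart from 3.97, 3.23 and 3.0 at 24 h. R406 minus DMSO in DHL6 was -0.24 ± 0.39 at 2 h and -3.02 ± 0.39 at 48 h, and the difference in response was -0.51 ± 0.58, -1.67 ± 0.58, -2.19 ± 0.58 and -3.08 ± 0.58 at 2, 6, 24 and 48 h. The size of the DHL6 change at 48 h is a lower bound, since the mean there (3.34) was near the floor. TUBB2A is a near-identical copy, and a probe set annotated to both genes read 2.77, 2.40 and 2.74 in DHL6 at 48 h, against 3.74, 4.23 and 4.25 in DHL6 DMSO. In DHL4 that probe set read 2.91, 3.16 and 3.35 at 24 h, against 3.16 and 3.38 in DMSO, which overlap. Signal of either gene may be read by the other's probes, so values of this pair are uncertain. The TUBB2B probe set is also of a type that may bind related genes, so signal of other tubulins may enter it.

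In a second group of 3 genes, the transcript was present in DHL4 and lower there under R406, with DHL6 at or near the floor throughout. USP2, a deubiquitinase known to stabilise cyclin D1 and MDM2, read 6.65 and 6.79 in DHL4 DMSO. Its DHL4 levels were 3.25, 2.89 and 2.79 at 2 h, 3.23, 3.03 and 2.95 at 6 h, 3.0, 2.84 and 2.89 at 24 h, and 5.47, 5.02 and 4.29 at 48 h. All 12 R406 arrays were below both DMSO arrays, those of 2 to 24 h lay at or near the floor, and those of 48 h stood between. The 15 DHL6 arrays ran from 2.55 to 2.99, at the floor in all 5 groups. DHL4 R406 minus DMSO was -3.74 ± 0.21 at 2 h, a factor of 13.3, and this is a lower bound because the R406 arrays had reached the floor. In response, DHL6 differed from DHL4 by 3.84 ± 0.28, 3.73 ± 0.28, 3.78 ± 0.28 and 1.89 ± 0.28 at 2, 6, 24 and 48 h, and a positive value here means that the low was in DHL4. A second USP2 probe set read 2.40 to 3.01 everywhere, in DMSO too.

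BCAR3, an adaptor with an SH2 domain that binds the scaffold protein p130Cas, had much the same course as USP2. It read 5.84 and 6.05 in DHL4 DMSO, 3.28, 3.05 and 3.06 at 2 h, 3.80, 3.67 and 3.71 at 6 h, 4.05, 3.97 and 3.37 at 24 h, and 5.25, 5.29 and 5.14 at 48 h. No R406 array of DHL4 reached the DMSO arrays, although those of 48 h came close. DHL6 read 2.60 to 3.46 over its 15 arrays. Its arrays of 24 h (2.60 to 2.91) lay just below those of DMSO (2.96 to 3.20), at or near the floor. DHL4 R406 minus DMSO was -2.81 ± 0.18 at 2 h and -0.72 ± 0.18 at 48 h, and the difference in response was 2.64 ± 0.24, 2.13 ± 0.24, 1.81 ± 0.24 and 0.71 ± 0.24 at 2, 6, 24 and 48 h. The size of the DHL4 change at 2 h is a lower bound, since the mean there (3.13) was near the floor.

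HTR3A, a subunit of the serotonin-gated cation channel, had the widest span of group means. In DHL4 it read 9.04 and 9.12 in DMSO, 7.29, 7.40 and 7.12 at 2 h, 5.66, 5.74 and 5.73 at 6 h, 3.44, 3.56 and 2.95 at 24 h, and 7.42, 7.34 and 7.47 at 48 h. The level was lower at each time up to 24 h, where it was near the floor, with no overlap between any of these groups, and the 48 h arrays were back at about the level of 2 h. In DHL6 the gene read 2.71 to 3.28 on all 15 arrays. Those of 6 h (2.82 to 2.88) lay just below DMSO (2.90 to 3.21), at or near the floor. DHL4 R406 minus DMSO was -1.81 ± 0.16, -3.37 ± 0.16, -5.76 ± 0.16 and -1.67 ± 0.16 at 2, 6, 24 and 48 h, and the 24 h value is a factor of 54.3 and a lower bound. DHL6 minus DHL4, the response differed by 1.69 ± 0.21, 3.11 ± 0.21, 5.73 ± 0.21 and 1.58 ± 0.21. The other HTR3A probe set had group means of 7.16 in DHL4 DMSO and 5.13, 4.31, 3.02 and 5.60 at the 4 times, and 2.59 to 3.21 in DHL6.

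**Figure D1:**
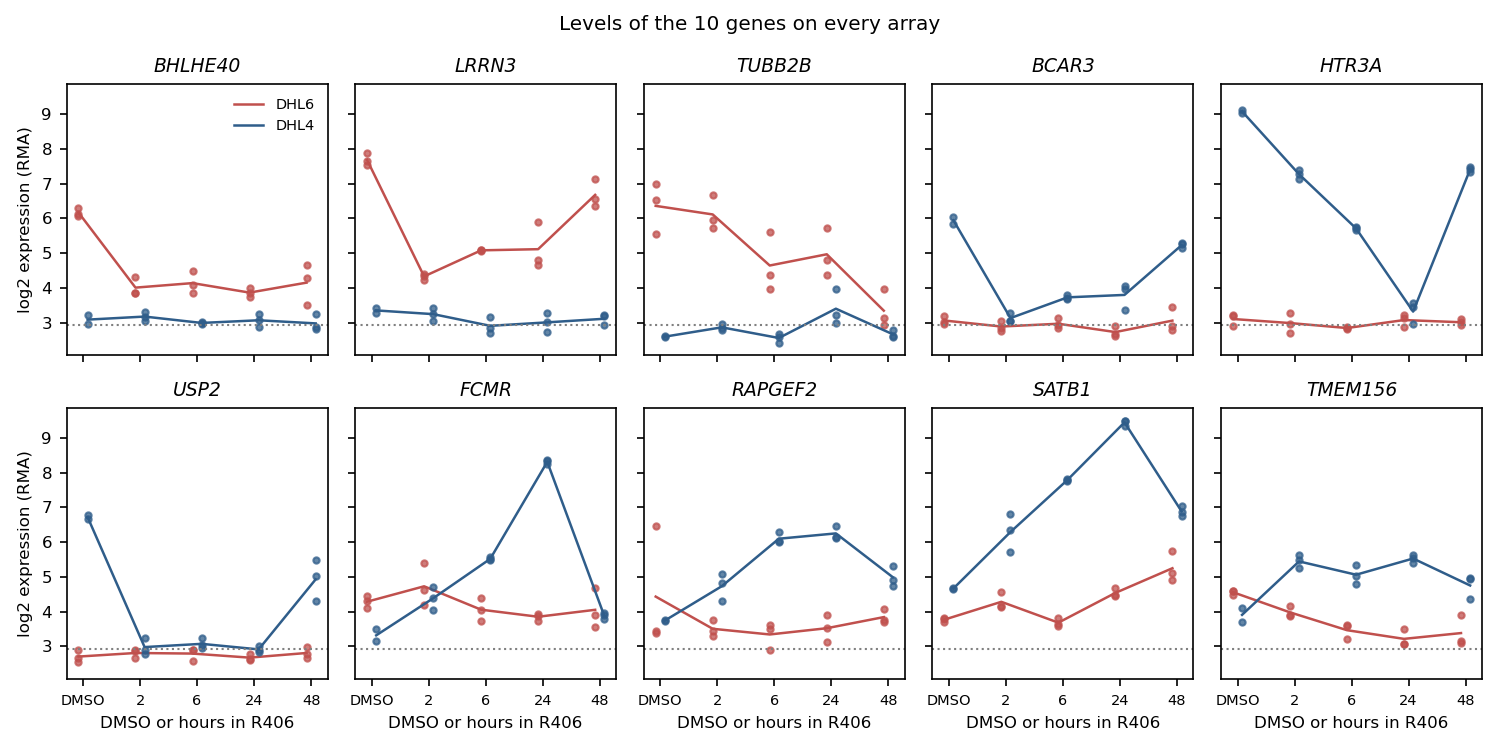
Log2 level of each of the 10 genes on every array (points) with group means (lines), DHL6 in red and DHL4 in blue, for DMSO and R406 at 2, 6, 24 and 48 h (categories, not to scale). The dotted line is the array floor at 2.93. HTR3A in DHL4 stands at 9.04 and 9.12 in DMSO and near the floor at 24 h, while DHL6 stays at 2.71 to 3.28.

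The remaining 4 genes were higher under R406 in DHL4. FCMR, the receptor for the Fc part of immunoglobulin M on B cells, read 3.14 and 3.49 in DHL4 DMSO, near the floor. Its DHL4 levels were 4.04, 4.72 and 4.39 at 2 h, 5.58, 5.47 and 5.50 at 6 h, 8.37, 8.32 and 8.24 at 24 h, and 3.95, 3.78 and 3.90 at 48 h. All R406 arrays lay above both DMSO arrays, in a peak at 24 h that was nearly gone at 48 h. DHL6 read 5.39, 4.18 and 4.61 at 2 h, 4.40, 3.73 and 4.03 at 6 h, 3.73, 3.94 and 3.88 at 24 h and 3.56, 4.68 and 3.91 at 48 h, against 4.29, 4.10 and 4.46 in DHL6 DMSO. These DHL6 arrays overlapped DMSO at 2, 6 and 48 h and lay below it at 24 h. DHL4 R406 minus DMSO was 4.99 ± 0.28 at 24 h, a factor of 31.9 and a lower bound, and the DHL4 arrays of 48 h stood at -4.43 ± 0.25 relative to those of 24 h. DHL6 differed from DHL4 in response by -0.63 ± 0.37, -2.43 ± 0.37, -5.43 ± 0.37 and -0.79 ± 0.37 at 2, 6, 24 and 48 h, and a negative value here means that the high was in DHL4. A second FCMR probe set had DHL4 means of 3.04 in DMSO and 3.96, 4.30, 7.17 and 3.64 at the 4 times, with 3.48 to 3.72 in DHL6. On it the DHL6 arrays of 24 h (4.08, 3.50 and 3.33) overlapped DMSO (3.45, 3.74 and 3.60).

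SATB1, a chromatin organiser best known from thymocytes, is the member whose 2 lines both stood above DMSO late. In DHL4 it read 4.65 and 4.68 in DMSO, 6.80, 6.36 and 5.71 at 2 h, 7.82, 7.77 and 7.78 at 6 h, 9.35, 9.49 and 9.50 at 24 h, and 6.86, 6.76 and 7.04 at 48 h. In DHL6 it read 3.79, 3.69 and 3.82 in DMSO, 4.13, 4.15 and 4.56 at 2 h, 3.58, 3.81 and 3.65 at 6 h, 4.47, 4.46 and 4.68 at 24 h, and 5.11, 4.90 and 5.73 at 48 h. Every R406 array of DHL4 was above DMSO, and in DHL6 those of 2, 24 and 48 h were, while those of 6 h overlapped DMSO. R406 minus DMSO at 48 h was 1.48 ± 0.19 in DHL6 and 2.22 ± 0.22 in DHL4. At 24 h it was 0.77 ± 0.19 in DHL6 and 4.78 ± 0.22 in DHL4, the last a factor of 27.5. The difference in response was -1.11 ± 0.29, -3.21 ± 0.29, -4.01 ± 0.29 and -0.74 ± 0.29 at 2, 6, 24 and 48 h, the smallest at 48 h.

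RAPGEF2, an exchange factor that switches on the small GTPase Rap1, read 3.76 and 3.72 in DHL4 DMSO, 4.81, 5.09 and 4.29 at 2 h, 6.02, 6.28 and 5.99 at 6 h, 6.16, 6.13 and 6.46 at 24 h, and 5.30, 4.92 and 4.74 at 48 h. All DHL4 arrays under R406 lay above DMSO. In DHL6 the 12 R406 arrays ran from 2.90 to 4.07, against 3.39, 3.45 and 6.45 in DMSO. The third DHL6 DMSO array stands alone, and it decides the DHL6 value: R406 minus DMSO at 24 h was -0.91 ± 0.46 with it and 0.10 without it. In response, DHL6 differed from DHL4 by -1.92 ± 0.69, -3.45 ± 0.69, -3.42 ± 0.69 and -1.84 ± 0.69 at 2, 6, 24 and 48 h, and -0.91, -2.44, -2.42 and -0.83 without that array. A second RAPGEF2 probe set read 2.66, 2.83 and 2.76 on the 3 DHL6 DMSO arrays, with none standing apart, and its DHL4 means were 3.07 in DMSO and 3.56, 4.83, 5.30 and 3.96 at the 4 times. The other 2 probe sets of the gene read 2.40 to 3.63.

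TMEM156, a transmembrane protein whose function is little known, lay on opposite sides of DMSO in the 2 lines. In DHL6 it read 4.60, 4.49 and 4.58 in DMSO, 3.88, 3.89 and 4.16 at 2 h, 3.62, 3.57 and 3.20 at 6 h, 3.06, 3.51 and 3.07 at 24 h, and 3.16, 3.90 and 3.08 at 48 h. In DHL4 it read 4.11 and 3.70 in DMSO, 5.62, 5.47 and 5.24 at 2 h, 5.03, 4.80 and 5.35 at 6 h, 5.62, 5.41 and 5.55 at 24 h, and 4.94, 4.96 and 4.35 at 48 h. At each of the 4 times all R406 arrays lay below DMSO in DHL6 and above DMSO in DHL4. R406 minus DMSO at 24 h was -1.34 ± 0.20 in DHL6, where the gene had come near the floor, and 1.62 ± 0.22 in DHL4. DHL6 minus DHL4, the response differed by -2.12 ± 0.30, -2.25 ± 0.30, -2.96 ± 0.30 and -2.03 ± 0.30 at 2, 6, 24 and 48 h.

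The 4 times picked out different members. A difference in response of at least 2-fold (1 on the log2 scale) was present for 8 of the 10 genes at 2 h, where 1.82% of all 12165 genes had one, and for all 10 at 6 h (4.92% of all genes) and at 24 h (9.38%). It was present for 6 at 48 h (3.92%). Because the genes were chosen for this difference, nothing is read from these counts against their background. At 2 h FCMR and TUBB2B were under the limit, and at 48 h LRRN3, BCAR3, FCMR and SATB1 were. By size of the difference among all 12165 genes, USP2 was 1st at 2 h and at 6 h, LRRN3 was 2nd at 2 h, and HTR3A and FCMR were 2nd and 3rd at 24 h. RAPGEF2 was 2nd at 6 h, a rank that rests on the 1 high DHL6 DMSO array, without which its difference was -2.44, close to that of FCMR (-2.43), which ranked 31st. By their largest difference at any time the members ranked from 2 (HTR3A) to 134 (BHLHE40), so the choice set no sharp limit and other genes with larger differences than BHLHE40 are not among them.

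**Figure D2:**
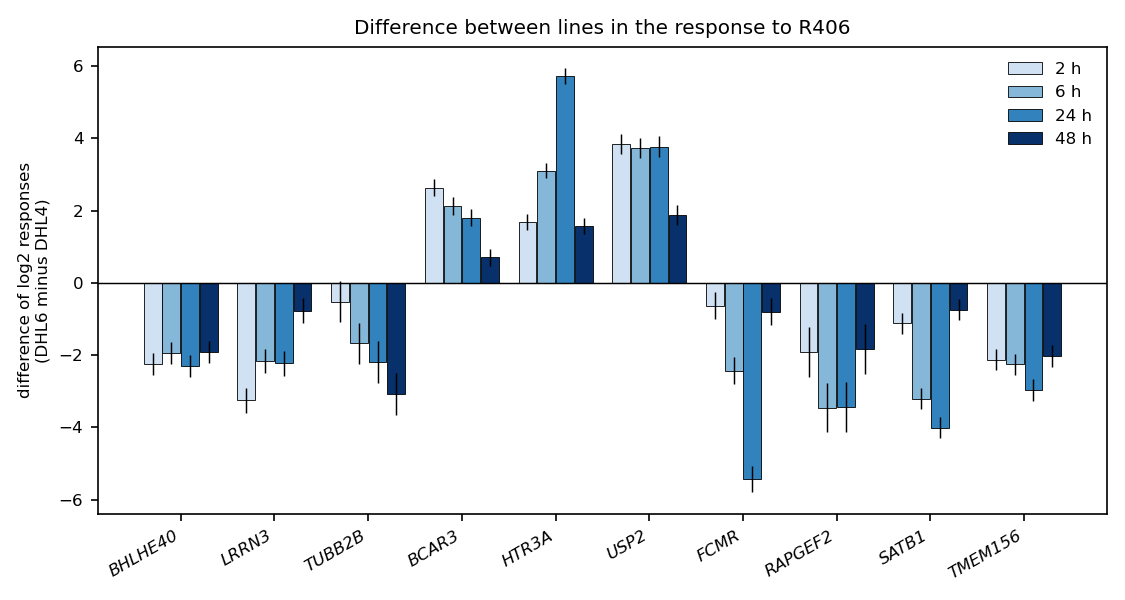
Difference in log2 response to R406, DHL6 minus DHL4, for each of the 10 genes at 2, 6, 24 and 48 h (bars from 0, light to dark), with lines of 1 SE of the fitted model. HTR3A at 5.73 and FCMR at -5.43 lie farthest from 0, both at 24 h.

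**Figure D3:**
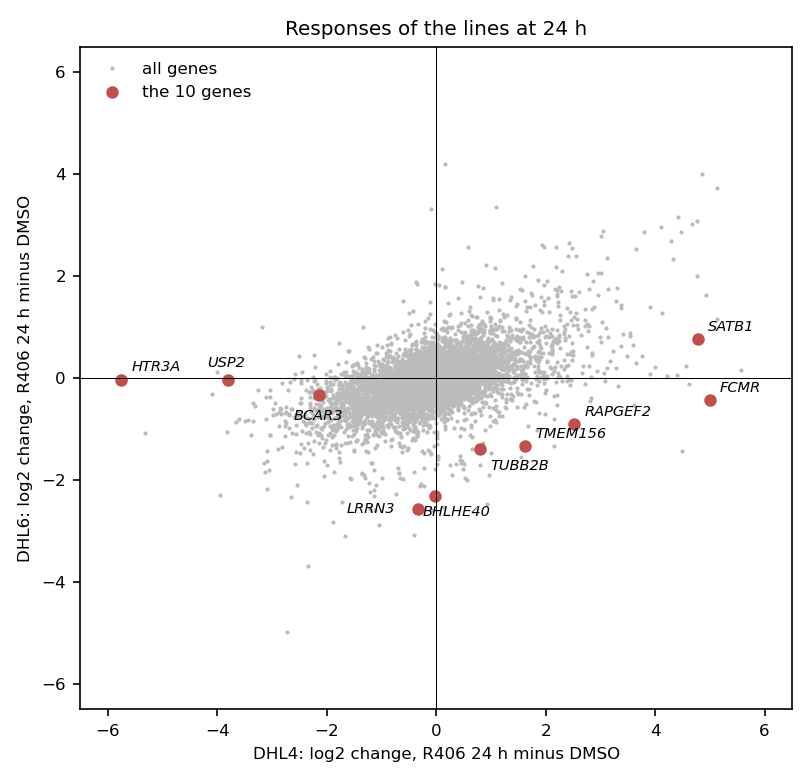
Log2 response (R406 at 24 h minus DMSO) in DHL6 on the vertical axis against that in DHL4 on the horizontal axis, for the 10 genes (red, named) and all genes (grey). TMEM156 lies at -1.34 in DHL6 and 1.62 in DHL4, and HTR3A at -0.03 in DHL6 and -5.76 in DHL4.

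The lines read closer to each other under R406 for some genes and farther apart for others. For 6 genes, those with 1 line at or near the floor throughout, the gap between the lines was narrower at 24 h than in DMSO. DHL6 stood above DHL4 by 0.80 for BHLHE40 at 24 h, against 3.08 in DMSO, by 2.10 against 4.33 for LRRN3 and by 1.57 against 3.76 for TUBB2B. DHL6 minus DHL4 was -1.07 at 24 h, against -2.88 in DMSO, for BCAR3, -0.24 against -5.97 for HTR3A and -0.24 against -4.01 for USP2. For the 2 last genes the lines thus read nearly alike at 24 h, both near or at the floor. For the other 4 the gap was wider at 24 h: it was -4.46 against 0.97 in DMSO for FCMR, -2.73 against 0.69 for RAPGEF2, -4.91 against -0.90 for SATB1 and -2.31 against 0.65 for TMEM156. FCMR and TMEM156 were thus higher in DHL6 in DMSO and higher in DHL4 at 24 h, whereas the positive DMSO value of RAPGEF2 rests on the 1 high DHL6 array, since the other two read 3.39 and 3.45, below 3.76 and 3.72 in DHL4.

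**Figure D4:**
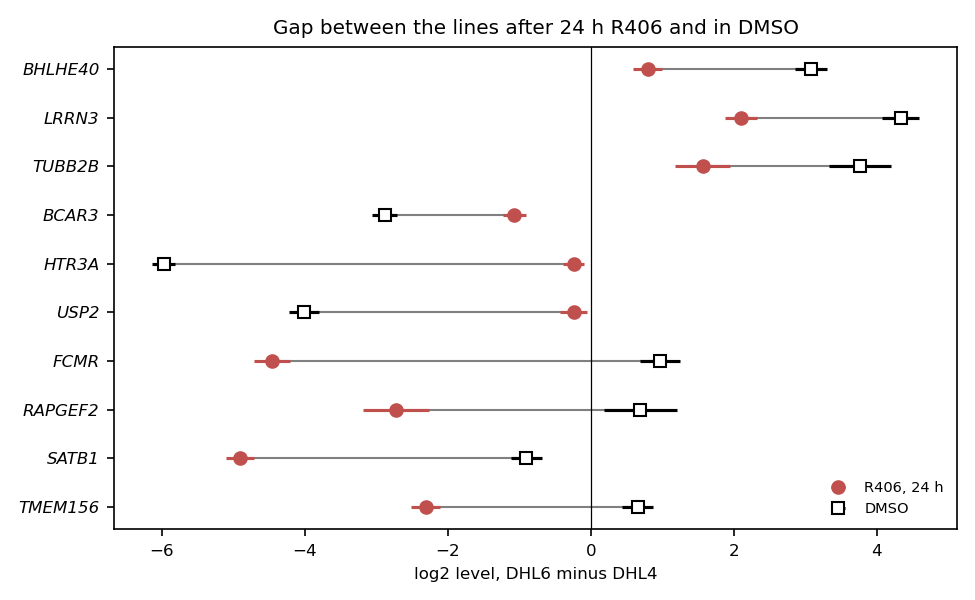
Gap in log2 level between the lines, DHL6 minus DHL4, for each of the 10 genes under R406 at 24 h (red circles) and in DMSO (open squares), with bars of 1 SE of the fitted model. The gap of HTR3A is -0.24 at 24 h, against -5.97 in DMSO, and that of SATB1 is -4.91, against -0.90.

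The course to 48 h also set the members apart. The line that led a response is the one with the larger absolute change at 24 h. On the log2 scale, the 48 h value there was 11.2% of the 24 h value for FCMR and 29% for HTR3A. For BCAR3 it was 33.4% and for LRRN3 39.1%. It was 46.5% for SATB1, 47.0% for USP2, 49.6% for RAPGEF2 and 52.3% for TMEM156. The shares of HTR3A and USP2 are upper limits, since their 24 h levels were near or at the floor, and that of FCMR, whose DMSO level was near it, is a lower limit. BHLHE40 kept 87.4%, and TUBB2B reached 217%, a lower limit because its 48 h level was near the floor. The members that led in DHL4 were thus all closer to DMSO there at 48 h, whereas of the 3 led by DHL6 only LRRN3 was clearly so. For TMEM156 the lead of DHL4 at 24 h was small (1.62, against -1.34 in DHL6, near the floor). At 48 h its change was 0.85 in DHL4 and -1.18 in DHL6. The onset differed as well: the 2 h value was already 93.7% of the 24 h value for BHLHE40, 95.0% for TMEM156, 131% for LRRN3 and 131% for BCAR3, but 21.4% for FCMR, 31.4% for HTR3A, 34.0% for SATB1, 39.4% for RAPGEF2 and 17.6% for TUBB2B. For USP2 no such share is read, since its level was at or near the floor at 2 h and at 24 h, and HTR3A and BCAR3 also came near the floor at 24 h and at 2 h.

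Over the 10 group means, some members correlated, which is a description of 10 points that share the 2 lines and the same DMSO arrays. Pearson's r was 0.955 for USP2 with BCAR3, 0.923 for LRRN3 with BHLHE40 and 0.916 for RAPGEF2 with SATB1. It was 0.864 for RAPGEF2 with TMEM156 and 0.824 for USP2 with HTR3A, whose courses to 24 h differed. Among all genes whose group means spanned at least 1 log2 unit, the closest to BCAR3 were CSRNP3 (r = 0.993) and PTGS1 (0.992), which encodes cyclooxygenase 1, and PTGS1 (0.964) was also among the closest to USP2, behind PDZRN3 (0.985). HTR3A was followed by PITX1 (0.991) and PODXL (0.980), LRRN3 by APOBEC3G (0.971) and CD58 (0.956), and BHLHE40 by JAM2 (0.980) and UGT2B17 (0.960). SATB1 was followed by ADPRM (0.985) and BLCAP (0.981), FCMR by SHOX2 (0.954) and KLHL2 (0.953), and TUBB2B by HCG18 (0.985) and INPP5F (0.955). SLC35A1 was among the closest to both RAPGEF2 (0.953, with RUFY3 at 0.941) and TMEM156 (0.886, with EVI2B at 0.910). By Spearman's rho, only 4 of these 20 pairs of a member and a gene were again among the closest 2, so the order of likeness depends on the measure.

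The relatives of the 10 genes are not members, and they were tested with limma over all 12165 genes with Benjamini-Hochberg adjustment. A call is an adjusted p under 0.05. The lists of relatives were drawn up with earlier results of these data known, so their shares are not independent of the values tested. The 9 lists, 1 for the family or pathway of each member except TMEM156, held 180 genes, of which 151 were measured. A difference in response between the lines was called for 3 relatives at 2 h, where 1.76% of all genes were called, 16 at 6 h (7.04% of all genes), 32 at 24 h (16.4%) and 19 at 48 h (5.08%). The shares of the relatives were 1.99%, 10.6%, 21.2% and 12.6%. In the lines themselves at 24 h, 32 relatives (11 up, 21 down) were called in DHL6, where 14.4% of all genes were, and 53 (30 up, 23 down) in DHL4, where 29.5% were. The 3 called at 2 h, named after their values were seen, were FCGR2B (1.80 ± 0.20), RASGRP3 (0.62 ± 0.15) and USP36 (1.38 ± 0.31). The count at 2 h was 1 without DHL4 DMSO replicate 1, DHL6 DMSO replicate 3, DHL4 2 h replicate 3 or DHL6 2 h replicate 1, and 5 without DHL4 2 h replicate 2. The count at 48 h was 10 without DHL4 DMSO replicate 2.

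Tubulins, the subunits of microtubules, held the largest share of calls among the 9 lists at 24 h (52.9%, against 16.4% of all genes). Of 17 measured, 7 had a higher response in DHL6 than in DHL4 and 2 a lower one, with a median difference of 0.48, against -0.0041 over all genes. In DHL6 itself 1 rose and 7 fell at 24 h (47.1%, against 14.4% of all genes). For DHL4, 4 rose and 9 fell (76.5%, against 29.5% of all genes). Several called tubulins, TUBB3 among them, were read from probe sets of a type that may also bind related genes. Their calls may thus not be separate readings. TUBG1, the gamma-tubulin of the centrosome, fell by 0.68 in DHL6 and fell by 2.15 in DHL4, a difference of 1.47 ± 0.28 (adjusted p = 0.000417). TUBB3, a neuronal beta-tubulin, fell by 0.50 in DHL6 and fell by 1.37 in DHL4, a difference of 0.87 ± 0.19. TUBB2A, the copy of TUBB2B, went the other way. It read 6.57, 6.04 and 6.19 in DHL6 at 24 h, against 7.34, 7.24 and 7.27 in DHL6 DMSO, and 7.87, 7.79 and 7.59 in DHL4 at 24 h, against 5.89 and 5.94 in DHL4 DMSO. All its R406 arrays at 24 h lay below DMSO in DHL6 and above it in DHL4, and the difference was -2.85 ± 0.35 (adjusted p = 1.14e-06). The probe set shared with TUBB2B, given above, was no higher at 24 h in DHL4. TUBA1A (-0.85 ± 0.17), named after its value was seen, was the other tubulin with a lower response in DHL6.

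Among the Rap GTPases and their regulators, the neighbours of RAPGEF2, 4 of 17 (23.5%, against 16.4% of all genes) had a lower response in DHL6 at 24 h and none a higher one, with a median difference of -0.23. RASGRP2, an exchange factor for Rap like RAPGEF2, read 3.34, 3.29 and 3.65 in DHL6 at 24 h, against 3.92, 4.14 and 3.77 in DHL6 DMSO, and 7.33, 7.54 and 7.26 in DHL4 at 24 h, against 5.25 and 5.07 in DHL4 DMSO. Its arrays did not overlap in either line, and the difference was -2.74 ± 0.20 (adjusted p = 4.03e-10). The GTPases RAP1B (-1.11 ± 0.24) and RAP2B (-0.59 ± 0.18) were the next, followed by RASGRP3 (-0.51 ± 0.15), which was named after its value was seen. RAPGEF6, the closest relative of RAPGEF2, was not called at 24 h (-0.34 ± 0.31, adjusted p = 0.614). At 48 h it fell by 0.70 in DHL6 and rose by 0.77 in DHL4, and the difference of -1.47 ± 0.31 was called (adjusted p = 0.0053).

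Of 12 Fc receptor and immunoglobulin M genes, 1 had a higher and 2 a lower response in DHL6, with a median of 0.03. That is 25% called at 24 h, against 16.4% of all genes. CD79A, the signalling chain of the B-cell receptor on which SYK docks, read 8.53, 8.39 and 8.26 in DHL6 at 24 h, against 9.41, 9.51 and 9.34 in DHL6 DMSO, and 9.72, 9.81 and 9.61 in DHL4 at 24 h, against 8.83 and 8.80 in DHL4 DMSO. It fell by 1.03 in DHL6 and rose by 0.90 in DHL4, and the difference was -1.92 ± 0.19 (adjusted p = 5.32e-08). FCRL2, an Fc receptor-like protein of B cells, had a difference of -1.88 ± 0.47 (adjusted p = 0.00537), and FCGR2B, the inhibitory receptor for immunoglobulin G, one of 0.78 ± 0.20 (adjusted p = 0.00744), with DHL6 at the floor (2.76 at 24 h, against 2.77 in DMSO).

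Of 11 partners of SATB1, 1 had a higher and 3 a lower response in DHL6, with a median of -0.25. Called at 24 h were thus 36.4%, against 16.4% of all genes. The lower ones were the remodeller SMARCA5 (-1.41 ± 0.31), the acetyltransferase KAT2B (-1.16 ± 0.36) and the nuclear body protein SP100 (-1.14 ± 0.20). The higher one, named after its value was seen, was CTBP1 (0.48 ± 0.14), read from a probe set that may also bind related genes. SP100 rose in both lines, by 0.71 in DHL6 and by 1.84 in DHL4. Of 13 Cas adaptors and partners of BCAR3, 2 (15.4%, against 16.4% of all genes) had a lower response in DHL6 and the median was -0.05. These were the focal adhesion kinases PTK2 (-2.12 ± 0.30, adjusted p = 7.39e-06), which fell by 1.67 in DHL6, and PTK2B (-1.25 ± 0.26, adjusted p = 0.000932), which rose by 1.26 in DHL4. SH2D3C, of the same adaptor family as BCAR3, was not called at 24 h (0.04 ± 0.17, adjusted p = 0.944) and read under 3.43 in DMSO and at 24 h in both lines.

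Of 29 ubiquitin-specific proteases other than USP2, 3 had a higher and 3 a lower response in DHL6, with a median of -0.17. That is 20.7% called at 24 h, against 16.4% of all genes. The higher ones were USP13 (1.86 ± 0.33), USP6 (1.13 ± 0.35) and USP14 (1.01 ± 0.14). The USP6 probe set is of a type that may also bind related genes. USP14, which trims ubiquitin chains at the proteasome, fell by 0.45 in DHL6 and fell by 1.46 in DHL4. USP21, of the same enzyme family, was not called at 24 h (-0.19 ± 0.36, adjusted p = 0.860). Of 18 clock genes, the setting of BHLHE40, DBP (1.01 ± 0.31) and BMAL1 (-0.94 ± 0.25) were called at 24 h. That share was 11.1%, against 16.4% of all genes. BMAL1 lay at the floor in DHL6 (2.91 at 24 h, against 2.79 in DMSO). At 48 h the called ones were BMAL1 (-0.97 ± 0.25) and, named after their values were seen, PER2 (-1.16 ± 0.32) and CSNK1E (1.84 ± 0.30). BHLHE41, the closest relative of BHLHE40, lay at the floor or near it in both lines in DMSO and at 24 h and was not called at 24 h (-0.18 ± 0.23, adjusted p = 0.749). Of 21 serotonin genes MAOA alone (4.76%, against 16.4% of all genes) was called at 24 h (-0.64 ± 0.21). Its levels were under 3.43 in DMSO and at 24 h. At 48 h the called ones, named after their values were seen, were DDC (1.03 ± 0.23) and MAOB (0.73 ± 0.20). HTR3B, the partner subunit of HTR3A, read 2.50 to 2.67 in DMSO and at 24 h and was not called at 24 h (0.19 ± 0.18, adjusted p = 0.626). Of 13 leucine-rich repeat membrane proteins, LRIG1 was the only one (7.69%, against 16.4% of all genes) called at 24 h (-2.15 ± 0.25, adjusted p = 5.14e-07). It rose by 2.40 in DHL4, while DHL6 was at or near the floor with 3.07 at 24 h, against 2.82 in DMSO.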

How the data were processed

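RNA of the 29 arrays was hybridised to an Affymetrix plate-format human array of 22277 probe sets. The deposited values are log2 expression per probe set made by the authors with RMA, per the submitters' processing notes. The RMA version is not given in the sources used here, nor is the set of arrays it was run on. RMA pulls dim probe sets toward a common low value, which understates folds of dim genes, and the number of arrays limits precision.

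Symbols came from the platform annotation: 19724 probe sets had 1 symbol, 568 several, 1923 were not listed and 62 were array controls. Each gene was read from its single-symbol probe set of highest mean (12165 genes). All arrays entered 1 limma fit of 10 group means (version 3.58.1, under R 4.3.3, functions lmFit and eBayes), which left 19 residual and added 5.05 prior degrees of freedom. P-values had Benjamini-Hochberg adjustment per contrast. The code was tested on simulated data. An SE is that of the fitted contrast.

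The members and the lists were chosen with earlier results of these data known. Named are the members, at most 3 called relatives per list with the largest line difference at 24 h, 7 fixed nearest relatives (LRRN1 is not used here), and the 2 genes most like each member; other names are marked. The near-floor width was chosen after the data were seen. Alternatives were quantile normalization, centring on array medians, the mean of a gene's probe sets, a fit on the compared groups, a fit without genes at the floor, the replicate number as a block, leaving out each array, a floor at the 90th percentile and Spearman's rho.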

Additional observations from a re-analysis of the deposited data

Results flagged for a closer look

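Among the members, the difference in response (DHL6 minus DHL4, log2) stood out where every R406 array lay on opposite sides of DMSO in the 2 lines. For TMEM156 this held at 2, 6, 24 and 48 h, with differences of -2.12, -2.25, -2.96 and -2.03. For FCMR it held at 24 h, with -5.43, on its main probe set, while on its second probe set the DHL6 arrays of 24 h overlapped DMSO. These differences were not tested, because the genes were chosen for them.

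Among the relatives, 21 named genes had a difference at 24 h that passed the test in limma, with adjusted p from 4.03e-10 to 0.0383. The response was lower in DHL6 for TUBB2A (-2.85), RASGRP2 (-2.74), LRIG1 (-2.15), PTK2 (-2.12), CD79A (-1.92) and FCRL2 (-1.88). It was also lower in DHL6 for SMARCA5 (-1.41), PTK2B (-1.25), KAT2B (-1.16), SP100 (-1.14), RAP1B (-1.11), BMAL1 (-0.94), MAOA (-0.64) and RAP2B (-0.59). It was higher in DHL6 for USP13 (1.86), TUBG1 (1.47), USP6 (1.13), DBP (1.01), USP14 (1.01), TUBB3 (0.87) and FCGR2B (0.78). DHL6 was at the floor for FCGR2B and BMAL1 and at or near it for LRIG1 and MAOA. TUBB2A and CD79A fell in DHL6 and rose in DHL4, as did RASGRP2.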

How the results depend on the processing

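No line difference of a member, and no member value past 2-fold, turned its sign under quantile normalization, centring, the mean of probe sets, the compared groups alone, no genes at the floor, the replicate block or with an array left out. Smaller responses within 1 line turned it in 25 cases, among them RAPGEF2 in DHL6 without the DHL6 DMSO replicate 3, at 2 h (0.08, against -0.93 with all arrays), 24 h (0.10, against -0.91) and 48 h (0.42, against -0.59). The number of relatives with a called line difference at 48 h was 12 when only the compared groups were fitted, against 19 with all arrays. When 1 array was left out, it ran from 10 to 26 at 48 h, and from 1 to 5 at 2 h, where all arrays gave 3. The counts of members past 2-fold stayed between 7 and 8 at 2 h and between 5 and 7 at 48 h when 1 array was left out, and 4 members were past it at 48 h with the mean of a gene's probe sets. That mean brings in probe sets at the floor: of 74 member values past 2-fold, it moved 24 by over 1.5 times, all of USP2, RAPGEF2 and BHLHE40, and put 7 under 2-fold. Leaving out 1 array moved 3 of 590 by over 1.5 times, all of RAPGEF2 without the DHL6 DMSO replicate 3. It put 12 of the 590 under 2-fold. Where 1 DHL4 DMSO array remained, it was assumed to vary like the other groups. With the floor at the 90th percentile, 23 of 100 member groups were at it, against 14.

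The labels do not say what the replicate numbers share, and they were not taken to pair the samples. Deviations of same-numbered arrays correlated at -0.441 to 0.350 over 126 pairs of arrays (median 0.0133), over 0.1 in 18. Those of arrays with other numbers correlated much alike, at -0.323 to 0.369 over 252 pairs (median -0.0035), over 0.1 in 37. Of 29 arrays, 15 correlated best with their own number, where about 9.67 would if the number had no bearing, which is a hint from the data and not part of the design. With the replicate number as a block, 3, 17, 31 and 20 relatives had a called line difference at 2, 6, 24 and 48 h, and 8, 10, 10 and 6 members were past 2-fold.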
